A study of Mus musculus with 4 samples.

Results

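The genes described here are 39 members of fibroblast growth factor (FGF) signalling through the mitogen-activated protein kinase (MAPK) cascade. They were chosen by gene name from a fixed list, and all 39 were found among the 30199 gene names on the array, each represented by its brightest probe. A gene was tested where its probe exceeded background clearly in every mutant channel or in every control channel, which held for 34 members and for 19619 genes in all. The study compared microdissected mouse hearts at embryonic day 9.5, from Nkx2.5Cre; Hdac3f/f mutants and from Hdac3f/f littermate controls, all on a mixed CD1/B6/129 background. Hdac3 encodes a class I histone deacetylase, and the Cre recombinase is driven by Nkx2.5 in cardiac progenitors. The controls carry the floxed gene and no stated Cre, so loss of Hdac3 and the presence of the Cre allele cannot be told apart. Each of 4 two-colour arrays set a pool of 3 mutant hearts against a pool of 3 control hearts, which gives n = 4 pairs of pools.

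FGF ligands bind receptor tyrosine kinases on the cell surface together with heparan sulphate, and the docking protein Frs2 then passes the signal through Grb2, Ptpn11 and Sos1 to Ras, Raf and the kinases Map2k1, Map2k2 and Mapk3. The cascade induces its own inhibitors, among them the Dusp phosphatases, Sprouty and Spred proteins and Il17rd, and the ETS transcription factors Etv4 and Etv5, whose transcripts are widely used as a readout of FGF activity. In the embryonic heart, FGFs of the second heart field act on progenitors of the outflow tract and right ventricle, and FGFs of the Fgf9 subfamily act on the growing myocardium.

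Which way a ratio runs is not settled by the sources. The labels place mutant RNA in Cy5 on every array, whereas the deposited columns, whose names put mutant before wild type, follow the Cy5 over Cy3 ratio for pairs 1 and 2 (slopes of 1.03 and 1.01 over bright probes) and oppose it for pairs 3 and 4 (slopes of -0.99 and -1.01). Ratios below follow the deposited table, so their direction is likely, from its column names. The mean with all dyes read as labelled, from scanner intensities, is given beside the mean of each gene's main probe, and was not computed for second probes, and pairs 1 and 2 have the same direction under both readings. With the signs of the table, the ratios of pairs 1 and 4 had a correlation of -0.33 over the tested genes, those of pairs 1 and 2 one of 0.54, and those of pairs 3 and 4 one of 0.45. Pairs 1 and 3, 2 and 3, and 2 and 4 had correlations of 0.054, 0.016 and -0.12. With the dyes as labelled, pairs 1 and 4 had a correlation of 0.28. Pairs 1 and 3, 2 and 3, and 2 and 4 then had -0.041, 0.0056 and 0.11. Pair 3 had the widest spread of log2 ratios over all tested genes (SD 0.43, against 0.21 to 0.26 in the other pairs). In a channel, 66.6% to 71.2% of probes exceeded background clearly, and with only 4 arrays the precision of each value is limited by their number. Hdac3 itself had log2 ratios of -0.22, -0.50, -0.52 and -1.15 (-0.60 ± 0.39, SD, n = 4; limma adjusted p = 0.586; 0.21 as labelled). With the dyes as labelled, its ratios were -0.22, -0.48, 0.45 and 1.1. The 4 pairs thus shared a direction for Hdac3 only with the signs of the table. Where the Hdac3 probe lies relative to the deleted exons was not examined. One label field of replicates 2 to 4 mentions embryonic stem cells, although titles and genotypes name hearts. All 15 cardiomyocyte markers examined cleared background and were tested. So did 7 of 10 pluripotency markers, Nanog, Zfp42, Utf1, Dppa5a, Esrrb, Tdgf1 and Klf2, and the other 3, Pou5f1, Dppa3 and Fgf4, did not clear background in any channel. Over the whole array 19619 of 30199 gene names were tested. Mean signals ran from 2172 (Ryr2) to 151297 (Actc1) for the cardiomyocyte markers. For the tested pluripotency markers they ran from 23.2 (Zfp42) to 2689 (Klf2).

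No member passed the test across all genes (limma with Benjamini-Hochberg adjustment at 0.05), and neither did any other gene, so the background of called genes was 0%. The smallest adjusted p of any gene was 0.254, and the members' adjusted p-values ran from 0.586 to 0.998. Of the 34 tested members 20 had a mean log2 ratio above 0 and 14 below, with a median of 0.040. Over all tested genes 53.5% had a mean above 0, with a median of 0.011. At an unadjusted p below 0.05 there were 3 members higher in mutant pools, Etv5, Dusp6 and Spry4, where 3.88% of all genes were higher, and 1 member lower, Fgf1, where 4.58% were lower. Of the members 3, Etv5, Spry4 and Fgfr1, were above 0 in all 4 pairs, against 10.0% of all tested genes, and 0 members were below 0 in all 4 pairs, against 9.72%. In pooled whole hearts, fewer cells of a type and less RNA per cell cannot be told apart. With the dyes as labelled, the median of the members was -0.046 and 14 of 34 had a mean above 0. In all, 24 of the 34 members changed sign between the readings, and Etv5, Spry4, Il17rd and Grb2 were among those with a mean above 0 under both. The readings also differ in processing, since the one as labelled uses scanner intensities. Fgf11, Fgf13 and Spry1 had already turned with scanner intensities and the signs of the table (-0.066, -0.056 and 0.021).

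**Figure D1:**
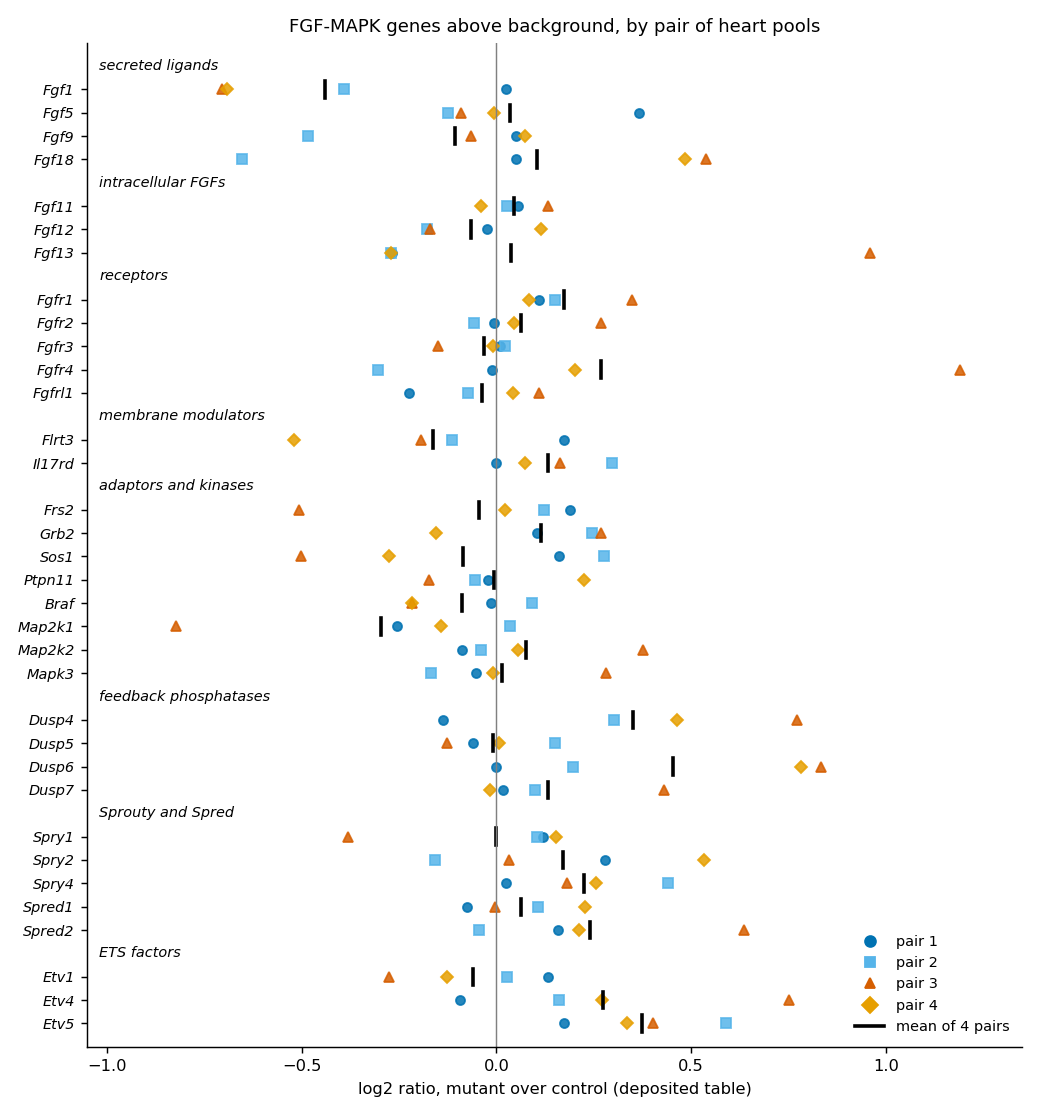
Log2 ratio of mutant over control for each tested member (rows, grouped by role) on the horizontal axis, from the deposited table; each symbol is 1 pair of heart pools and the black bar is the mean of 4 pairs. Etv5, Spry4 and Fgfr1 have all 4 symbols above 0, and pair 3 holds the extreme values of Fgf13 and Fgfr4.

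The 12 Dusp, Sprouty, Spred and ETS members had a median log2 ratio of 0.20, with 9 above 0, where 53.5% of all tested genes were above 0. The other 22 tested members, from ligands to kinases and with Il17rd counted among them, had a median of 0.0033, with 11 above 0 (-0.038 and 10 of 22 as labelled). This grouping follows the roles and was described after the values were seen, and no test of it was run. The median of the 12 was 0.021 in pair 1, 0.13 in pair 2, 0.29 in pair 3 and 0.24 in pair 4. With the dyes as labelled the median of the 12 was -0.060, with 4 of 12 above 0. Outside the members, 20 other negative regulators of the pathway were tested and had a median of -0.042, with 9 above 0 (13 as labelled). The 17 tested other targets of the pathway had a median of 0.041, with 9 above 0 (8 as labelled).

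The ETS factor Etv5 had the smallest p of the members (limma unadjusted p = 0.00522, place 147 among all tested genes by p; adjusted p = 0.586). Its processed signals, which are background-subtracted and dye-normalized brightness, were 3208, 4392, 7432 and 6505 in the mutant pools of pairs 1 to 4, against 2833, 2904, 5703 and 5208 in the control pools. The mutant signal was the higher one in every pair, while the ranges of mutant and control signals over the 4 arrays overlapped. The log2 ratios were 0.17, 0.59, 0.40 and 0.33, a mean of 0.37 ± 0.17 (SD, n = 4) or a fold of 1.30. The mean was 0.38 over pairs 1 and 2, whose direction both readings share, and 0.37 over pairs 3 and 4, so that the mean as labelled was 0.0080. The Etv5 probe maps to chromosome 16, 22381387 to 22381446, in mm9. The RefSeq table of GRCm38.p6 holds a pair of start sites for Etv5. Their promoters, from 250 bases before to 50 after the start, are shown with that of Dusp6, a feedback phosphatase whose mean ratio was 0.45 with the signs of the table and -0.35 as labelled, because ETS factors bind a GGAA core and both genes are targets of the cascade. Capitals mark each GGAA on either strand (TTCC on the strand shown).
Etv5 upstream start, chr16:22439521-22439820, minus strand: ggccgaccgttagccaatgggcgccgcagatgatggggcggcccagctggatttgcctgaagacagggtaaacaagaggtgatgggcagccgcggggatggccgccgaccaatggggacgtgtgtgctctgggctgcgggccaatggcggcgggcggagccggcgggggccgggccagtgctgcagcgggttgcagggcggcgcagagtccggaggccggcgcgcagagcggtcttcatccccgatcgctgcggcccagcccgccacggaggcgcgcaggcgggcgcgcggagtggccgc
Etv5 downstream start, chr16:22438319-22438618, minus strand: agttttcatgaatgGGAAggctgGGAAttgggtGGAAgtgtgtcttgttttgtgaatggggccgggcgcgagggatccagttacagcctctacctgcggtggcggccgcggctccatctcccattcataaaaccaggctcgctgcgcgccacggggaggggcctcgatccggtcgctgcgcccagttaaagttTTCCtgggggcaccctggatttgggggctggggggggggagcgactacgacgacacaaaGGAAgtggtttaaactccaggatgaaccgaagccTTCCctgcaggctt
Dusp6, chr10:99262981-99263280, plus strand: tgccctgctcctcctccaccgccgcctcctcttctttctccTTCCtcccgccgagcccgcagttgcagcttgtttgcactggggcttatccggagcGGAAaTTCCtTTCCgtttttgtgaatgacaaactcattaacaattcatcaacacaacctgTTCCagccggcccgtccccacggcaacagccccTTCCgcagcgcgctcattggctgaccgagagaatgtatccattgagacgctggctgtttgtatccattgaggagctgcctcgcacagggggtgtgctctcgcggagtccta
The downstream Etv5 promoter and the Dusp6 promoter held 6 GGAA matches each and the upstream Etv5 promoter held 0. The promoters counted for members held from 0 to 7 matches, with 7 at Spred2 and at a Grb2 start and 0 also at Dusp7. All 32851 promoters of the table had a median of 3 matches, and 96.0% held at least 1. The longer CCGGAAG, searched on both strands and containing the GGAA core, was in 8.86% of all promoters, and TGANTCA, a palindrome in its fixed letters and the AP-1 consensus, was in 7.81%. Of the 40 promoters listed for 30 members, 38 held GGAA, 3 held CCGGAAG and 2 held TGANTCA, and these 3 promoters held neither of the longer motifs. A match is only a description of letters, not of binding.

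Etv4, a close relative of Etv5, had signals of 811, 1034, 2152 and 1825 in the mutant pools and 865, 921, 1261 and 1537 in the control pools. The mutant signal was lower in pair 1 and higher in the other pairs. The log2 ratios of -0.093, 0.16, 0.75 and 0.27 gave a mean of 0.27 ± 0.35 (SD, n = 4; limma adjusted p = 0.613), which was 0.034 over pairs 1 and 2 and -0.24 as labelled. Its second probe gave a mean of 0.27 as well. Etv1, the third ETS member of the family, had ratios on both sides of 0 (mean -0.061; 0.14 as labelled).

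Dusp6, a phosphatase that inactivates ERK in the cytoplasm, had the highest mean of the tested members with the signs of the table and the second lowest, after Fgf18, as labelled. Its signals were 3411, 4281, 8006 and 6341 in the mutant pools, against 3385, 3685, 4518 and 3623 in the control pools. The difference was near 0 in pair 1 and widest in pairs 3 and 4. The log2 ratios were 0.00, 0.20, 0.83 and 0.78, with a mean of 0.45 ± 0.42 (SD, n = 4), a fold of 1.37 (limma unadjusted p = 0.0273, adjusted p = 0.586). The mean was 0.099 over pairs 1 and 2 and 0.81 over pairs 3 and 4, and with the dyes as labelled it turned to -0.35. The Dusp6 probe maps to chromosome 10, 98729985 to 98730044, in mm9.

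Dusp4, a nuclear phosphatase of the same family, had signals of 295, 463, 919 and 814 in the mutant pools and 332, 372, 520 and 580 in the control pools. As for Etv4, the mutant signal was the lower one in pair 1 only. The Dusp4 log2 ratios of -0.14, 0.30, 0.77 and 0.46 gave a mean of 0.35 ± 0.38 (SD, n = 4; limma adjusted p = 0.586; -0.26 as labelled). Dusp7, which acts on cytoplasmic ERK, had a mean of 0.13 (-0.072 as labelled), and its second probe one of 0.20. Dusp5, a nuclear ERK phosphatase, cleared background in all 4 control channels but in 2 mutant channels, and its mean was -0.0077 (-0.11 as labelled). None of the 4 phosphatases had a mean above 0 with the dyes as labelled.

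The Sprouty and Spred proteins restrain the cascade at the level of Ras and Raf. Spry4 had signals of 55.1, 87.1, 118 and 149 in the mutant pools, against 54.5, 60.6, 98.1 and 118 in the control pools. The mutant signal was the higher one in each pair, by least in pair 1. Its log2 ratios of 0.024, 0.44, 0.18 and 0.26 gave a mean of 0.23 ± 0.17 (SD, n = 4), a fold of 1.17 (limma unadjusted p = 0.0448, adjusted p = 0.586). Spry4 was 0.23 over pairs 1 and 2 and 0.22 over pairs 3 and 4, and 0.0098 as labelled. Spred2 had ratios of 0.16, -0.044, 0.64 and 0.21 (mean 0.24 ± 0.29, SD, n = 4; limma adjusted p = 0.610; -0.12 as labelled). Spry2 had ratios of 0.28, -0.16, 0.032 and 0.53, with a mean of 0.17 (-0.047 as labelled). Spred1 had a mean of 0.064 (-0.046 as labelled), with its other 2 probes at 0.11 and 0.029. Spry1 had a mean of -0.0010 (0.10 as labelled), from 3 pairs between 0.10 and 0.15 and pair 3 at -0.38.

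**Figure D2:**
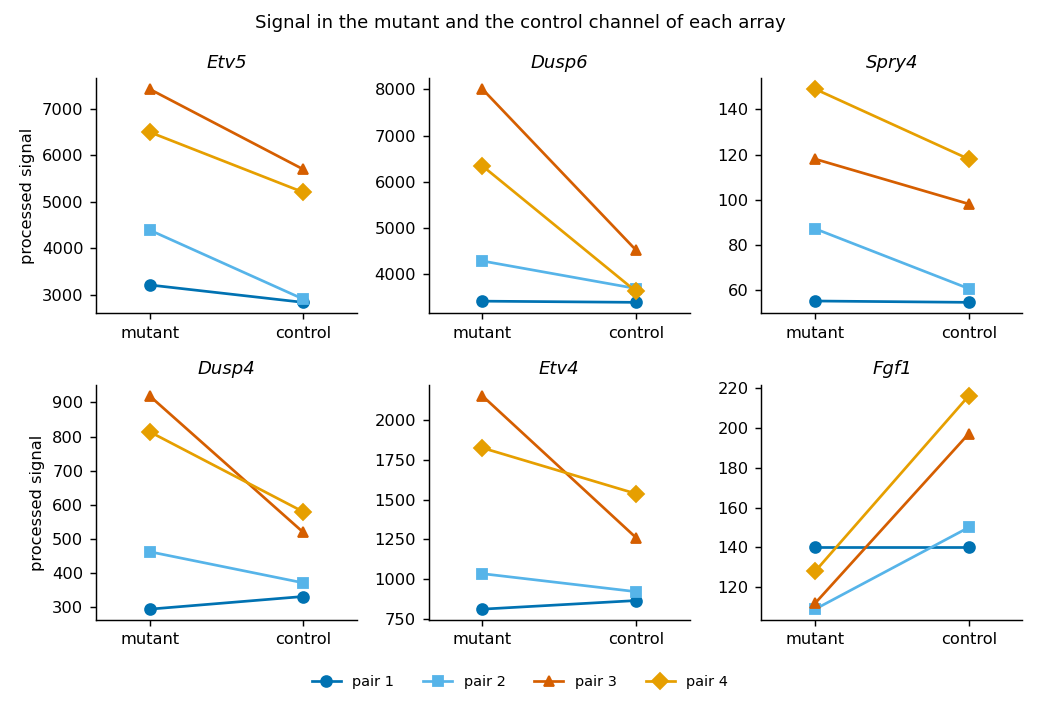
Processed signal on a linear vertical axis that does not start at 0, in the mutant and in the control channel (the channels as the deposited table has them); each line joins the pools of 1 pair. Etv5 and Spry4 slope the same way in every pair, Dusp6 is nearly level in pair 1, and Fgf1 is lower in mutant pools of pairs 2 to 4.

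Among the secreted ligands, 4 of 9 were measured well enough to test, and their mean log2 ratios lay between -0.44 and 0.11. Fgf1, which lacks a signal peptide and binds all FGF receptors, had signals of 140, 109, 112 and 128 in the mutant pools, against 140, 150, 197 and 216 in the control pools. The mutant signals were the lower ones in pairs 2 to 4 and equal in pair 1 at this rounding. The ratios of 0.024, -0.39, -0.71 and -0.69 gave a mean of -0.44 ± 0.34 (SD, n = 4), a fold of 0.737 (limma unadjusted p = 0.0161, adjusted p = 0.586; 0.16 as labelled). Its other probe, well above background on 2 of 4 arrays in each channel, had the opposite sign, with a mean of 0.19. Fgf18, of the Fgf8 subfamily, had ratios of 0.051, -0.65, 0.54 and 0.48, so pair 2 and pairs 3 and 4 lay on opposite sides of 0 and the mean was 0.11 ± 0.55 (SD, n = 4; limma adjusted p = 0.884; -0.38 as labelled). The second Fgf18 probe gave -0.046, -0.63, 0.61 and 0.55, the same order of pairs. The Fgf18 mean as labelled was the farthest from 0 of the members under that reading. Fgf9, a ligand for myocardial growth, had a mean of -0.11 (-0.13 as labelled) with pair 2 at -0.48, and Fgf5 one of 0.036 (0.088 as labelled).

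The other 5 ligands were not tested. Fgf3 and Fgf16 were not well above background on any array in either channel, Fgf2 was above it in 1 mutant and 0 control channels, Fgf20 in 1 of each and Fgf15 in 2 of each. Their deposited ratios, from -0.26 for Fgf3 in pair 3 to 0.47 for Fgf2 in pair 3, are therefore ratios of dim signals. A transcript below background on these arrays may still be present.

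The intracellular members Fgf11, Fgf12 and Fgf13 are not secreted and bind voltage-gated sodium channels. Fgf13 had signals of 108, 117, 413 and 236 in the mutant pools and 139, 147, 192 and 297 in the control pools. The mutant signal was the lower one in pairs 1, 2 and 4 and the higher one in pair 3. Its ratios were -0.27, -0.27, 0.96 and -0.27, and those of its second probe -0.071, -0.085, 0.37 and -0.073, so both probes set pair 3 apart. The mean of 0.037 turned to -0.27 without pair 3, and was -0.29 as labelled. Fgf11 had a mean of 0.044 (-0.081 as labelled) and Fgf12 one of -0.064 (-0.069 as labelled). The second Fgf12 probe, well above background in 1 mutant and 4 control channels, gave -0.173, -0.235, -0.3 and -0.345, with a mean of -0.263.

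Of the receptors, Fgfr1, the main receptor tyrosine kinase for FGFs in early mesoderm, was higher in the mutant pools of all 4 pairs. Its signals were 2661, 3022, 5196 and 4240 in the mutant pools, against 2417, 2684, 4096 and 3980 in the control pools. The ratios of 0.11, 0.15, 0.35 and 0.083 gave a mean of 0.17 ± 0.12 (SD, n = 4; limma adjusted p = 0.602; -0.041 as labelled). Its other 2 probes, both dimmer, gave means of 0.070 and -0.034, so the direction was not shared by all Fgfr1 probes. Fgfr4 had ratios of -0.011, -0.30, 1.19 and 0.20, a mean of 0.27 ± 0.65 (SD, n = 4; limma adjusted p = 0.722; -0.18 as labelled) that was -0.037 without pair 3, and its second probe read -0.15 in pair 3. Fgfr2 had a mean of 0.063 (-0.095 as labelled), with a second probe at -0.086. Fgfr3 had a mean of -0.032 (0.035 as labelled), with a second, dimmer probe at -0.23. Fgfrl1, a receptor without a kinase domain, had a mean of -0.037 (-0.11 as labelled).

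The membrane proteins that modulate the receptors went apart. Il17rd, an antagonist also called Sef, had ratios of -0.0020, 0.30, 0.16 and 0.074 (mean 0.13 ± 0.13, SD, n = 4; limma adjusted p = 0.643; 0.015 as labelled). Flrt3, which binds FGF receptors and promotes their signalling, had ratios of 0.17, -0.11, -0.19 and -0.52 (mean -0.16 ± 0.29, SD, n = 4; limma adjusted p = 0.685; 0.19 as labelled), and its other 2 probes had means of -0.038 and -0.015. In Flrt3 the 3 probes shared the place of pair 1 as the highest.

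In the cascade from docking protein to ERK, 3 of 8 tested members had a mean above 0, where 53.5% of all tested genes did. The median of the 8 was -0.025 (0.072 and 5 of 8 above 0 as labelled). Map2k1, a kinase that phosphorylates ERK, had the mean farthest from 0. Its signals were 2398, 3029, 2540 and 6110 in the mutant pools, against 2847, 2922, 4510 and 6738 in the control pools. The ratios of -0.26, 0.035, -0.82 and -0.14 gave a mean of -0.30 ± 0.37 (SD, n = 4; limma adjusted p = 0.608), which was -0.12 without pair 3 and 0.18 as labelled. Its paralogue Map2k2 had ratios of -0.088, -0.041, 0.38 and 0.054, with a second probe of opposite sign (means of 0.075 and -0.047, the first of them -0.14 as labelled). Ptpn11, a phosphatase needed for Ras activation, had ratios between -0.17 and 0.23 and a mean of -0.0065 (-0.035 as labelled). Frs2 had ratios of 0.19, 0.12, -0.51 and 0.022, with a mean of -0.044 that turned to 0.11 without pair 3 and to 0.19 as labelled. Sos1, the exchange factor for Ras, was dim, well above background in 3 mutant and 4 control channels, with a mean of -0.086 (0.091 as labelled).

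Probes of the same gene differed in sign for 6 of the 15 tested members that had several probes past the filter, namely Braf, Grb2, Fgfr1, Fgfr2, Mapk3 and Map2k2. For the adaptor Grb2 the brighter probe gave 0.10, 0.25, 0.27 and -0.16, with a mean of 0.12 (0.053 as labelled), and the dimmer one -0.24, -0.24, -0.46 and -0.12, with a mean of -0.27. The dimmer Grb2 probe was thus below 0 in all 4 pairs. For the Raf kinase Braf the brighter probe gave -0.015, 0.092, -0.22 and -0.22 (mean -0.089; 0.12 as labelled) and the dimmer one 0.086, -0.0060, 0.040 and 0.37 (mean 0.12). For Mapk3, which encodes an ERK kinase, the brighter probe gave -0.053, -0.17, 0.28 and -0.0080 (mean 0.013; -0.12 as labelled) and the dimmer one -0.24, -0.42, -0.33 and 0.36 (mean -0.16). For Fgfr2 the brighter probe gave -0.0060, -0.057, 0.27 and 0.046. These genes have no single direction on this array.

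**Figure D3:**
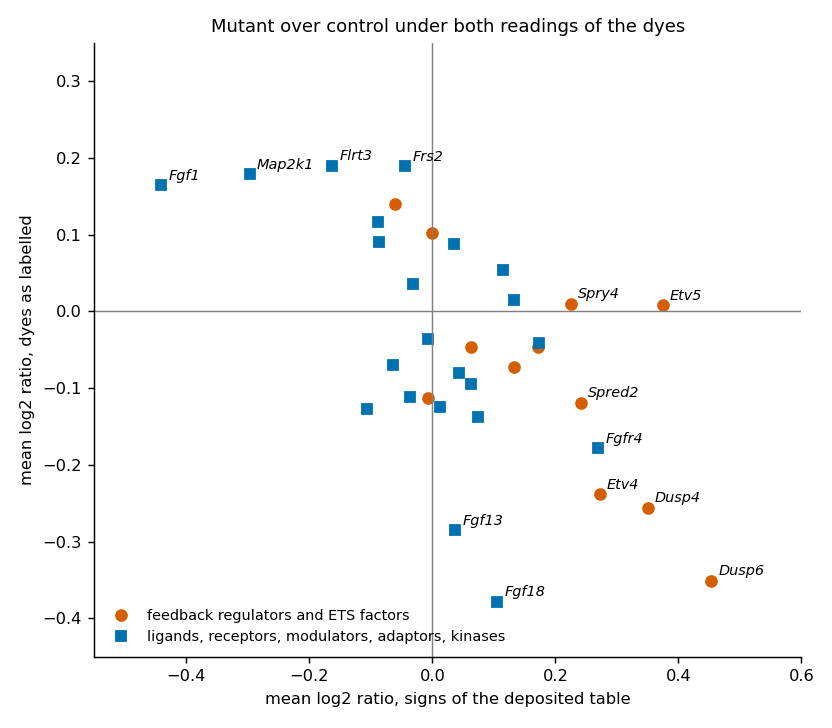
Mean log2 ratio of mutant over control for the 34 tested members with the signs of the deposited table (horizontal) and with all dyes as labelled, from scanner intensities (vertical). Most members, 24 of 34, lie in the upper left or lower right, where the sign differs between the readings. For Fgf11, Fgf13 and Spry1 it had already turned with scanner intensities and the signs of the table. Etv5 and Spry4 lie just above 0 on the vertical axis.

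Pathway genes outside the 39 were examined through a list of 101 further names, of which 99 were on the array and 87 were tested. Of these, 0 passed over all genes, 36 had a mean above 0 and 51 below, with a median of -0.033 (48 above 0 as labelled). At an unadjusted p below 0.05, 9 were higher (3.88% of all genes) and 4 lower (4.58% of all genes), and 12 were above and 12 below 0 in all 4 pairs (10.0% and 9.72% of all genes). Of 19 tested genes for co-receptors, heparan sulphate proteins and their enzymes, Flrt1 and Flrt2 included, 13 had a mean below 0 and 6 above (10 of 19 above as labelled). Among them Sdc2, the proteoglycan syndecan-2, had ratios of -0.16, -0.29, -0.92 and -0.55 (mean -0.48 ± 0.34, SD, n = 4; limma adjusted p = 0.586; 0.24 as labelled). Sulf2, a heparan sulphatase, had ratios of -0.14, -0.11, -0.22 and -0.32 (mean -0.20; 0.071 as labelled). Both were below 0 in all 4 pairs.

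Among transcriptional regulators downstream of ERK, Erf, an ETS repressor that ERK inactivates, had ratios of 0.12, 0.21, 0.94 and 0.41 (mean 0.42 ± 0.37, SD, n = 4; limma adjusted p = 0.586; -0.25 as labelled). Jun, an AP-1 subunit, had ratios of 0.030, 0.13, 0.57 and 0.47 (mean 0.30; -0.22 as labelled). Both were above 0 in all 4 pairs and highest in pair 3. The Raf inhibitor Pebp1 had ratios of 0.36, 0.47, 2.26 and 0.45 (mean 0.88 ± 0.92, SD, n = 4; limma adjusted p = 0.586; -0.47 as labelled). Ywhab, a 14-3-3 protein that binds Raf, had a mean of -0.22 (0.096 as labelled), Ksr2, a scaffold of the cascade, one of 0.21 (0.022 as labelled) and the ligand Fgf22 one of 0.26 (-0.044 as labelled). The second heart field ligand Fgf8 had ratios of -0.21, 0.10, 1.05 and 0.30 (mean 0.31; limma adjusted p = 0.652; -0.32 as labelled). Fgf10, another such ligand, had ratios of -0.13, 0.49, -0.26 and 0.39 (mean 0.12; limma adjusted p = 0.799; 0.0094 as labelled). For these 2 ligands the pairs lay on both sides of 0.

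Markers of other cell types were measured beside the members, and their part in the members' ratios was not tested. Ranges of summed signals run over the 4 arrays and do not keep the pairs. The 11 second heart field markers had a median log2 ratio of 0.16, with 8 above 0 (0.051 as labelled), and a summed signal of 17779 to 28091 in mutant pools and 12930 to 34523 in control pools. In the lowest of these sums, both in pair 1, Eya1 alone held 9029 and 5380. The 12 endocardial and endothelial markers had a median of 0.19, with 8 above 0 (-0.043 as labelled), and a summed signal of 11134 to 30290 in mutant pools and 10052 to 17182 in control pools. Of the highest mutant sum, in pair 3, Kdr alone held 15527, against 3422 in the control pool of that pair. Of the 12 pharyngeal and foregut endoderm markers 6 were tested, all with means above 0 and a median of 0.18 (-0.036 as labelled). Their summed signal was 17353 to 39058 in mutant pools and 17723 to 29430 in control pools, and Foxa1, Shh and Nkx2-1 did not clear background on any array. Of the 11 liver and visceral endoderm markers 7 were tested, with 6 above 0 and 5 higher at a limma unadjusted p below 0.05 (53.5% and 3.88% of all genes). Their median of 0.36 was the highest of the marker lists with the signs of the table (0.091 as labelled), and their summed signal was 2321 to 3303 in mutant pools and 2007 to 2998 in control pools. Of the other lists, 4 endocardial and endothelial, 3 second heart field, 2 pluripotency and 1 foregut endoderm markers were higher at that limma threshold. Lower were 4 primitive erythroid, 2 epicardial, 1 endocardial, 1 neural crest and 1 pluripotency marker, where 4.58% of all genes were lower. The 15 cardiomyocyte markers had a median of -0.017, with 6 above 0 (0.19 as labelled), and a summed signal of 934954 to 1268994 in mutant pools and 838587 to 1309972 in control pools. The 9 epicardial markers had a median of -0.17, with 1 above 0 (-0.11 as labelled), and a summed signal of 7553 to 11533 in mutant pools and 8540 to 11763 in control pools. The 11 tested primitive erythroid markers, of 12, had a median of -0.30, with 0 above 0 (0.029 as labelled), and a summed signal of 281279 to 449966 in mutant pools and 417997 to 576635 in control pools. The 7 tested neural crest and neural tube markers, of 11, had a median of 0.025, with 4 above 0 (0.032 as labelled; 1061 to 1721 in mutant pools and 1112 to 2088 in control pools). The 7 tested pluripotency markers had a median of 0.073, with 5 above 0 (-0.14 as labelled; 3734 to 8941 in mutant pools and 3782 to 6270 in control pools). The cardiomyocyte median was above 0 in pairs 1 and 2 (0.085 and 0.22) and below it in pairs 3 and 4 (-0.15 and -0.33).

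**Figure D4:**
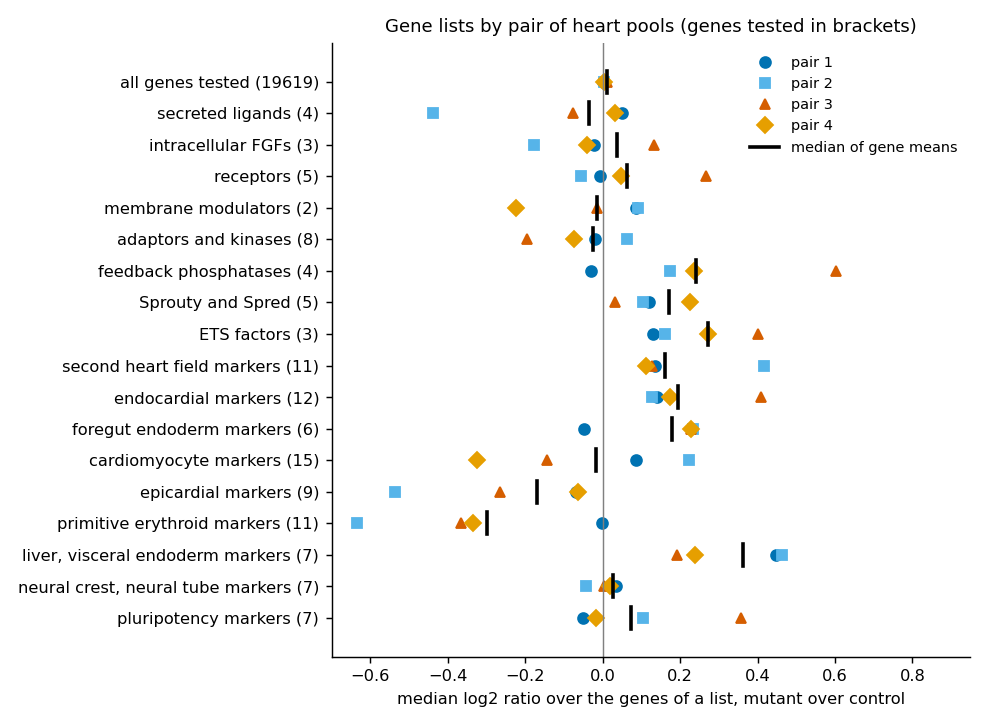
Median log2 ratio of mutant over control over the tested genes of each list (rows, number of genes in brackets), with 1 symbol for each pair of pools and a black bar for the median of the gene means. The feedback phosphatases, Sprouty and Spred genes and ETS factors lie at 0.24, 0.17 and 0.27, the liver and visceral endoderm markers at 0.36 and all tested genes at 0.011.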

How the data were processed

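Heart RNA was measured on 4 Agilent arrays with 2 colours each. The authors deposited scanner files and a table of log2 ratios, whose normalization the labels and headers do not name. Per the file headers, these hold spot and background intensity and processed intensity from Agilent Feature Extraction 11.5.1.1 (8.5.1.1 per the submitters' processing notes), and log10 of Cy5 over Cy3. The table's ratios had absolute correlations of 0.999 or more with normexp and loess ratios of the same arrays over bright probes (both mean signals above 2000).

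Table rows were joined by probe name and spots of a probe averaged, and the column medians were -0.027, -0.017, 0.021 and 0.025. A gene (GeneName in the scanner files) was represented by its probe of highest mean processed signal, and 38 of 39 members' accessions matched the same RefSeq symbol, the other having an Ensembl accession. Ratios were tested against 0 with limma 3.58.1 in R 4.3.3 (lmFit, eBayes, Benjamini-Hochberg over 19619 genes). Alternatives used normexp (offset 50) with loess, processed signals, dyes as labelled, other filters, centring and weights. The labels call the 4 pairs independent replicates. All members are named; values per pair are given for members of one sign in all pairs, for the 12 of smallest p and for those whose probes disagree, and for some others that were chosen after their values were seen. Of the other pathway genes, the 8 of smallest p with one sign in all pairs are named, and Fgf8 and Fgf10 as shared with the second heart field. Members and lists were chosen with earlier results of these data known. The test was also run on simulated ratios with known changes, whose settings and outcome are not reported here.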

Additional observations from a re-analysis of the deposited data

Results flagged for a closer look

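Of the 34 tested members, 2 had 1 pair far from the other 3, by the gap to the nearest pair relative to the whole range. The log2 ratio of Fgf13 was 0.958 in pair 3, where the other pairs lay between -0.271 and -0.269. The log2 ratio of Spry1 was -0.382 in pair 3, where the others lay between 0.104 and 0.154. About 1 in 20 groups of 4 is set apart in this way by chance. Pair 3 also had the widest spread over all genes, with an SD of 0.429.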

How the results depend on the processing

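No member passed an adjusted p of 0.05 in any of the 15 alternatives, and the lowest adjusted p of a member was 0.0973. Of 508 member values under alternatives, 424 kept their sign and 84 changed it. With all arrays as labelled, the median of the members was -0.0464, 98 genes were called higher and 9 lower, 1248 were higher and 1722 lower at an unadjusted p below 0.05, 2967 were below 0 on all arrays, and the sign changed for Fgf1 (0.164), Fgf18 (-0.378), Fgf11 (-0.0806), Fgf13 (-0.285), Fgfr1 (-0.0406), Fgfr2 (-0.0946), Fgfr3 (0.0355), Fgfr4 (-0.178), Flrt3 (0.19), Frs2 (0.189), Sos1 (0.0905), Braf (0.117), Map2k1 (0.179), Map2k2 (-0.138), Mapk3 (-0.124), Dusp4 (-0.256), Dusp6 (-0.351), Dusp7 (-0.0724), Spry1 (0.102), Spry2 (-0.0465), Spred1 (-0.0464), Spred2 (-0.119), Etv1 (0.14) and Etv4 (-0.238). Array weights gave pair 3 the lowest weight, 0.284, with 2 genes called higher and 2 lower (2443 and 2108 unadjusted), and changed the sign for Fgf18 (-0.138), Fgf13 (-0.213), Fgfr2 (-0.00718), Fgfr3 (0.00507), Fgfr4 (-0.0414), Flrt3 (0.00113), Frs2 (0.12), Sos1 (0.135), Map2k2 (-0.039), Mapk3 (-0.0741), Dusp5 (0.0155), Spry1 (0.0942) and Etv1 (0.0557). In the fit of pairs 1 and 2 only, added after seeing the data, 27 genes were called higher and 7 lower (2726 and 2511 unadjusted), and the sign changed for Fgf18 (-0.3), Fgf13 (-0.27), Fgfr2 (-0.0315), Fgfr3 (0.0155), Fgfr4 (-0.157), Flrt3 (0.0305), Frs2 (0.155), Sos1 (0.217), Braf (0.0385), Map2k2 (-0.0645), Mapk3 (-0.11), Dusp5 (0.0445), Spry1 (0.112) and Etv1 (0.0795). The dye term gave 1419 higher and 1575 lower at an unadjusted p below 0.05. With no replicate block, so that the pairing within arrays was left out, the counts were 338 and 317, and the sign changed for Fgf11 (-0.0664), Fgf13 (-0.056), Dusp5 (0.0664) and Spry1 (0.0213), as it did to the same values with normexp and loess ratios. Scanner processed ratios changed it for Fgfr3 (0.00125) and Spry1 (0.0147), and the mean of probes for Fgfr2 (-0.0117), Grb2 (-0.0751), Braf (0.0169) and Mapk3 (-0.0715). Median centring, the filters on dim probes and the dye term changed no sign of a member.

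Leaving out each replicate in turn gave 0 to 2 genes called higher and 0 lower, 551 to 682 higher and 629 to 827 lower unadjusted, 19 to 22 members above 0 and a median of the members between 0.0323 and 0.0727. The genes of one sign on the remaining arrays, 2759 to 3756 above and 2637 to 3503 below 0, were more because fewer arrays must share a sign. Signs changed, mostly without replicate 3, for Fgf5 (-0.074 to 0.089), Fgfrl1 (-0.0853 to 0.026), Dusp5 (-0.06 to 0.0317), Fgf9 (-0.166 to 0.019), Ptpn11 (-0.0837 to 0.049), Fgf18 (-0.039 to 0.358), Fgf13 (-0.27 to 0.14), Fgfr2 (-0.00567 to 0.103), Fgfr3 (-0.0493 to 0.00733), Fgfr4 (-0.0373 to 0.46), Frs2 (-0.121 to 0.111), Sos1 (-0.206 to 0.053), Map2k2 (-0.025 to 0.129), Mapk3 (-0.076 to 0.073), Spry1 (-0.0527 to 0.126) and Etv1 (-0.125 to 0.011). The other members kept their sign, among them Dusp6 (0.326 to 0.604), Etv5 (0.303 to 0.441), Spry4 (0.153 to 0.292) and Fgf1 (-0.596 to -0.353). The cause of these changes was not tested. Dim probes limit Dusp5, Sos1 and the 5 untested ligands, of which Fgf3 and Fgf16 were below background in every channel.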

Other observations

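Outside the members and the 8 named pathway genes, the ligand Fgf6, known from skeletal muscle and chosen here after its values were seen, had log2 ratios of 0.109, 0.290, 2.04 and 0.559 and was above 0 in all 4 pairs (mean 0.75 ± 0.88, SD, n = 4; limma adjusted p = 0.586; -0.51 as labelled). Its signal in pair 3 was 1368 in the mutant pool, against 310 in the control pool.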
